A study of Mus musculus with 34 samples.

Results

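The complement components and receptors examined here were 9 mouse genes of the classical pathway, its central protein and their receptors and inhibitor: C1qa, C1qb, C1qc, C4b, C3, Serping1, C3ar1, C5ar1 and Itgam. They were taken from the files by gene symbol, and all 9 were found among the 23951 genes listed for each library. Transcript levels were given as FPKM, fragment counts scaled by the length of the transcript and the size of the library. The study asked what the histone deacetylase HDAC1 does in the ageing and amyloid-bearing brain, and 27 of its 34 samples were used. All mice were male and carried Hdac1f/f, an Hdac1 gene that Cre recombinase can delete. Hippocampal RNA was sequenced from 4 control mice (Hdac1f/f, 13 to 14 months), 5 Hdac1 cKO mice (Hdac1f/f, Nestin-Cre, 13 to 14 months), 6 5XFAD mice (Hdac1f/f, 5XFAD, 13 months) and 5 compound mice (Hdac1f/f, Nestin-Cre, 5XFAD, 13 months). RNA of GFAP+ nuclei, sorted from cortex of mice aged 13 months, was sequenced from 3 mice of the control genotype (Hdac1f/f) and 4 of the Hdac1 cKO genotype (Hdac1f/f, Nestin-Cre). Nestin-Cre acts in neurons and astrocytes and leaves Hdac1 in place in microglia. The 5XFAD transgenes, which include mutant human APP, are under the neuronal Thy1 promoter, so amyloid in these mice comes from overexpressed human protein.

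Complement is a cascade of proteins that tags surfaces for removal. In the classical pathway the C1q complex, built from the A, B and C chains, binds its target and activates proteases that cleave C4 and then C3. Fragments of C3 stay on the target, where the receptor CR3 on phagocytes recognises them, or are released and act on the receptor C3aR, and the C1 inhibitor encoded by Serping1 stops the C1 proteases. In the brain C1q is made mainly by microglia, C4 mainly by astrocytes and other glia, and the pathway is known for marking synapses for removal in development and in mouse models of amyloid deposition.

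The 3 C1q genes lie side by side on the minus strand of chromosome 4 in mm9, within 18675 bp: C1qb at chr4:136436044-136442102, C1qc at chr4:136445719-136448980 and C1qa at chr4:136451832-136454718. C4b (chr17:34865325-34880827) and C3 (chr17:57343397-57367559) are both on the minus strand of chromosome 17. The remaining members are Serping1 (chr2:84605544-84615601, minus strand), C3ar1 (chr6:122797156-122806179, minus strand), C5ar1 (chr7:16832092-16844889, minus strand) and Itgam (chr7:135206154-135271674, plus strand). All are annotated as protein coding, and each value below is for the gene as a whole.

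The promoters of 3 members that moved together in 5XFAD hippocampus, C1qb, C1qc and C3ar1, and that of C3, which did not pass the test there, are shown to set their short motifs side by side. They are RefSeq windows of GRCm38.p6, from 250 bases before to 50 after the start of the gene, written on the strand of the gene. The table held 6 of the 9 members, and C1qa, C4b and Serping1 were among the 3 that were not matched. Capitals mark matches on either strand to AGGAAG (the core of PU.1-type ETS sites), GGGCGG (SP and KLF factors), TTGCNNAA (C/EBP), TTCNNNGAA (STAT) or GAAANNGAA (interferon regulatory factors).
C1qb, chr4:136886151-136886450, minus strand: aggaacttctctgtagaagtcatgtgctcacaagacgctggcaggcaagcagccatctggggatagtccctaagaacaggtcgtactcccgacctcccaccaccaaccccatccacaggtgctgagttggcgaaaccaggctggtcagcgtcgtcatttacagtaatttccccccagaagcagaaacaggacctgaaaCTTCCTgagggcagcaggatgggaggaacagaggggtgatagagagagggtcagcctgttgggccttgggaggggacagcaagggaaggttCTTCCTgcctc
C1qc, chr4:136892865-136893164, minus strand: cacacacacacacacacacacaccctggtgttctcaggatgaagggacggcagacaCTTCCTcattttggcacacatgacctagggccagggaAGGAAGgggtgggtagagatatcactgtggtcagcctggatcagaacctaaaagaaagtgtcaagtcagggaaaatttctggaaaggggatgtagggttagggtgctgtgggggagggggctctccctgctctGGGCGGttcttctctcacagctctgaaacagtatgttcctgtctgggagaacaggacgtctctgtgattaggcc
C3ar1, chr6:122856108-122856407, minus strand: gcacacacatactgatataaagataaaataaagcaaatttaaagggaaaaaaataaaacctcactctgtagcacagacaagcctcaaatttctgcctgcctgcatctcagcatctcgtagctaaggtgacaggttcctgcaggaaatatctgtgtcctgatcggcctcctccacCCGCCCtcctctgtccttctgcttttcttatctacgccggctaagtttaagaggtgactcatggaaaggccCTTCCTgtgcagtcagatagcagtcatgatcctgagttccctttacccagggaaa
C3, chr17:57228087-57228386, minus strand: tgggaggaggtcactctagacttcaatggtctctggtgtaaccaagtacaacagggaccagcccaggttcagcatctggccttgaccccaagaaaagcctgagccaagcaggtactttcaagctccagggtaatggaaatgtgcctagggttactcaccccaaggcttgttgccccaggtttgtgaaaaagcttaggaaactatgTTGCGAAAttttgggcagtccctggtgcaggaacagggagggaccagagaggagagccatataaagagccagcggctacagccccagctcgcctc

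AGGAAG occurred 2 times in the C1qb window, 2 times in C1qc and 1 time in C3ar1, and was not found in the C3 window. C5ar1 held 3 matches and Itgam 2, so 5 of the 6 members in the table had the motif, against 35.4% of all 32851 promoter windows. The C3 window held 1 match to TTGCNNAA, TTGCGAAA, which begins 45 bases before the start, and 10.8% of all windows hold this motif. GGGCGG was found in C1qc, C3ar1 and Itgam and in 35.7% of all windows. TTCNNNGAA was in none of the 6 and in 8.3% of all windows, and GAAANNGAA was in C5ar1 alone, where it overlapped an AGGAAG match, and in 8.56% of all windows. A match to these letters describes the sequence and does not show that a factor binds there.

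Group differences were fitted in limma to log2(FPKM + 1) for every gene with a mean of at least 0.5 FPKM in the libraries compared, and a gene was called at a Benjamini-Hochberg adjusted p under 0.05. Differences are in log2(FPKM + 1), which understates the change of genes near or below 1 FPKM. In hippocampus 8 of the 9 members passed this filter, and C5ar1 did not pass it in any comparison. Hdac1 and Thy1 were read as checks of the labels. Hdac1 was at 5.91 to 10.7 FPKM in control mice and 2.36 to 3.03 in Hdac1 cKO mice, 6.10 to 9.64 in 5XFAD mice and 1.15 to 2.52 in compound mice. Thy1, whose promoter drives the transgenes, was at 303 to 388 FPKM in mice without them and 1563 to 2357 in mice with them. The files give no fragment counts, so depth is unknown, and the relative depth estimated from the steps between low values ran from 0.753 to 2.36 over the hippocampal libraries and from 0.865 to 1.27 over the nuclei. Choroid plexus transcripts differed widely between mice, with Ttr (transthyretin) at 576 to 20146 FPKM in control mice, 56.5 to 1608 in Hdac1 cKO, 53.8 to 7892 in 5XFAD and 58.9 to 13910 in compound mice.

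In 5XFAD hippocampus the C1q chains, C4b and C3ar1 were higher than in control. Of the 8 members tested, 5 were called higher and none lower, where 0.667% of the 14402 genes tested were called higher. C4b rose most, by 2.09 on the log2 scale, followed by C1qa (1.78), C1qc (1.45), C1qb (1.36) and C3ar1 (1.18). The place of C3ar1 depends on that scale. With a pseudocount of 0.1 its difference was 1.81, above those of C1qc (1.47) and C1qb (1.37). At the thresholds the study used (1.5-fold or more, with p below 0.05 before adjustment), here applied to log2(FPKM + 1) and not to FPKM itself, 6 members were higher, with Serping1 added, against 1.72% of all genes. Over the 8 members tested the median difference was 1.27, and over all genes tested it was -0.01.

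C1qa was at 16.7, 14.7, 15.5 and 13.3 FPKM in the control mice and at 91.3, 46.1, 61.5, 46.3, 50.1 and 40.3 FPKM in the 5XFAD mice. Every 5XFAD mouse was above every control mouse, and 5XFAD mouse 1 stood above the other 5XFAD mice. The difference was 1.78 ± 0.19 (SE, adjusted p = 0.000238, limma) and the mean FPKM was 3.71 times that of control (exact permutation p = 0.00952, two-sided, the smallest that 6 against 4 mice allow). The labels number the libraries of a group without naming animals, so p-values here measure only the spread between these libraries, which are read as 1 mouse each.

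C1qb, the most abundant of the members, was at 80.4, 81.7, 92.3 and 60.2 FPKM in control and at 258, 177, 214, 195, 183 and 189 FPKM in 5XFAD. C1qc was at 39.6, 45.6, 47.1 and 30.0 FPKM in control and at 115, 97.6, 123, 117, 104 and 109 FPKM in 5XFAD. The groups did not overlap for either gene. The differences were 1.36 ± 0.13 for C1qb (adjusted p = 0.000115, limma) and 1.45 ± 0.12 for C1qc (adjusted p = 4.16e-05, limma).

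Ratios between the 3 chains were lower against C1qa in 5XFAD mice. The FPKM of C1qb was 5.21 ± 0.67 (SD, n = 4) times that of C1qa in control and 3.78 ± 0.64 (SD, n = 6) times in 5XFAD. For C1qc the ratio to C1qa was 2.69 ± 0.44 in control and 2.11 ± 0.50 in 5XFAD. The ratio of C1qb to C1qc was 1.95 ± 0.11 in control and 1.83 ± 0.21 in 5XFAD. These ratios of levels per length are a description, with no test, and the ranges of the groups overlapped in all 3.

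C4b, which encodes the C4 protein that C1 cleaves, was at 2.36, 2.70, 4.64 and 3.02 FPKM in control and at 24.0, 14.3, 13.4, 15.9, 18.7 and 14.5 FPKM in 5XFAD. No 5XFAD mouse was near the control range. The difference was 2.09 ± 0.18 (SE, adjusted p = 4.16e-05, limma), the largest among the members, and the mean FPKM was 5.28 times that of control. The near-identical gene C4a, 65209 bp away on chromosome 17, was at a mean of 0.0917 FPKM in control and 0.0221 in 5XFAD, and how the authors' counting divides fragments between the 2 copies is uncertain.

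C3, the central protein of the cascade, did not pass the test. It was at 0.622, 0.682, 4.65 and 0.721 FPKM in control and at 9.21, 1.92, 0.982, 1.62, 1.41 and 0.562 FPKM in 5XFAD. One mouse in each group, control mouse 3 and 5XFAD mouse 1, was far above the rest, and the groups overlapped. The difference was 0.35 with a 95% confidence interval from -0.84 to 1.53 (adjusted p = 0.856, limma), and without 5XFAD mouse 1 it was -0.02.

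C3ar1, the receptor for the C3a fragment, was at 0.674, 0.479, 1.20 and 1.38 FPKM in control and at 3.07, 2.31, 4.45, 3.46, 3.07 and 3.75 FPKM in 5XFAD. The groups did not overlap, and the difference was 1.18 ± 0.19 (SE, adjusted p = 0.00644, limma). Itgam, the alpha chain of CR3 and the gene of the CD11b antigen, was at 2.19, 1.69, 1.88 and 3.04 FPKM in control and at 3.57, 3.08, 4.01, 1.92, 2.66 and 3.22 FPKM in 5XFAD. The Itgam ranges overlapped, and its difference of 0.35 (95% confidence interval -0.04 to 0.73) did not pass the test (adjusted p = 0.512, limma).

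C5ar1, the receptor for the C5a fragment, was near the floor of these libraries. It was listed at 0.135 FPKM in control mouse 1 and at 0 in the other 3 control mice, and at 0.0726 to 0.896 FPKM in the 6 5XFAD mice. The difference in mean FPKM was 0.268 (exact permutation p = 0.0286, two-sided), and the ranges overlapped. The 5XFAD mean includes mouse 1 at 0.896 FPKM, with the other 5XFAD mice at 0.0726 to 0.361.

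Serping1, the C1 inhibitor, was at 3.41, 2.60, 4.85 and 4.91 FPKM in control and at 6.42, 8.52, 5.63, 7.04, 8.39 and 7.45 FPKM in 5XFAD. The groups did not overlap, as for 6 of the 8 members tested and 1.92% of all genes tested. The difference of 0.76 ± 0.17 (SE) missed the adjusted threshold (adjusted p = 0.0632, limma), and the exact permutation test over mice gave p = 0.00952. Over the fits that omit 1 mouse the adjusted p ranged from 0.0451, without 5XFAD mouse 3, to 0.187, and only that omission passed the threshold.

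**Figure D1:**
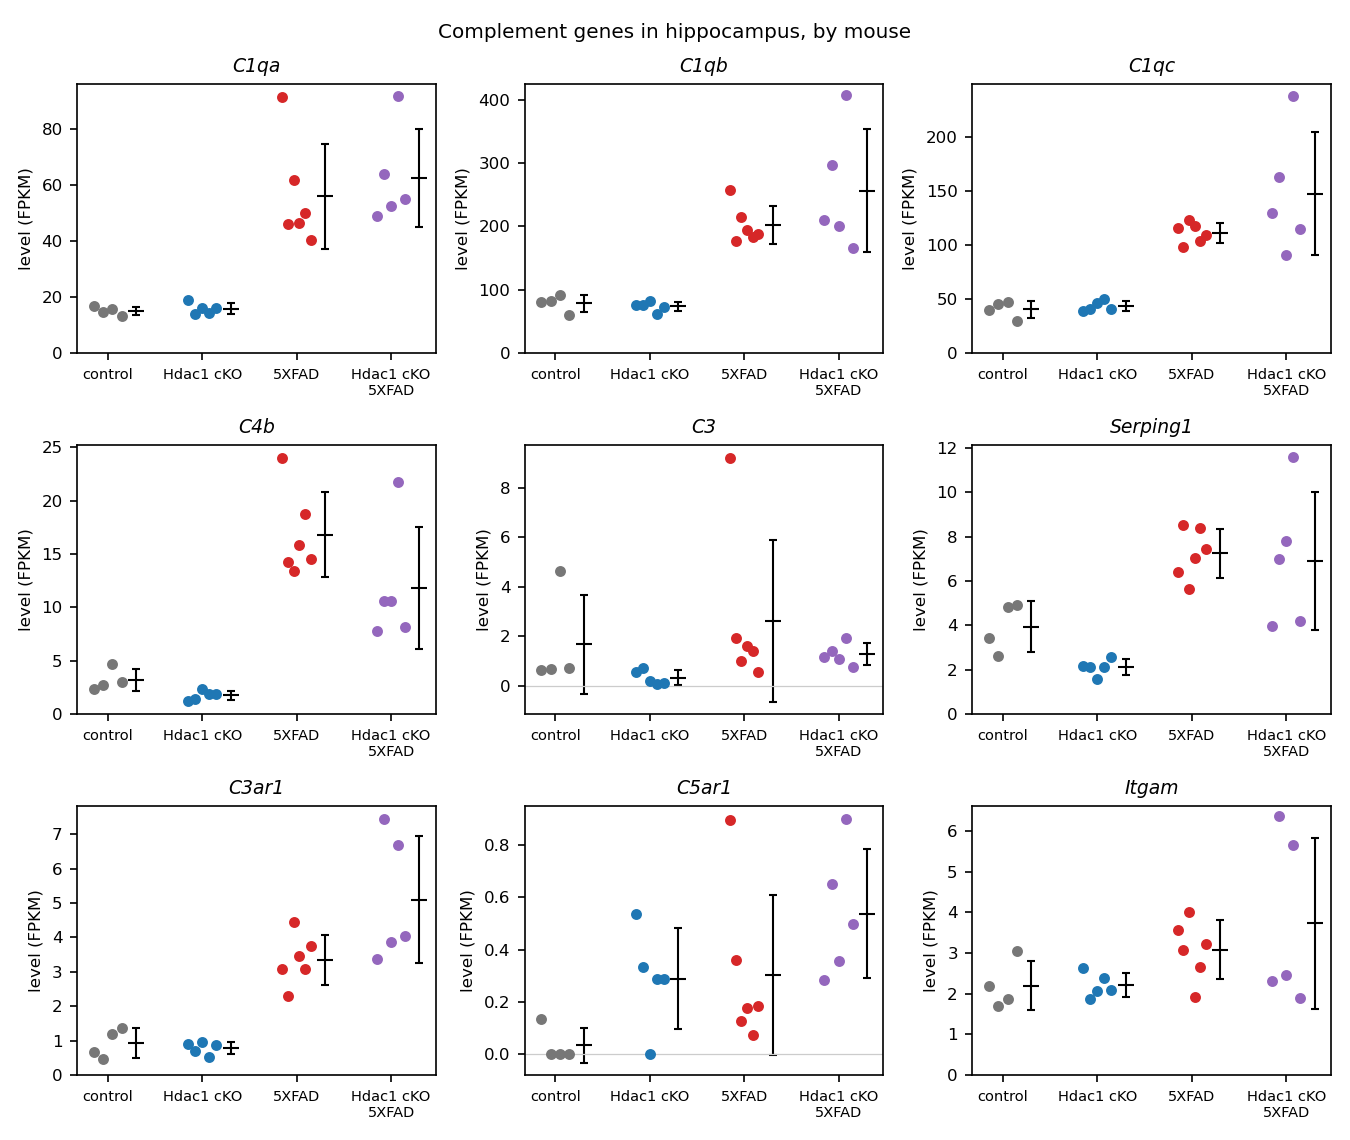
Level of each member in FPKM (vertical axis, 1 scale per panel) in the hippocampus of single mice of the 4 groups, with the mean and SD beside the points. The C1q chains, C4b and C3ar1 separate the 5XFAD and compound mice from the others, Itgam and C3 do not, and C3 shows 1 high mouse in control (4.65) and 1 in 5XFAD (9.21).

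In compound mice, with the 5XFAD transgenes and without HDAC1 in neurons and astrocytes, C1qa, C1qb, C1qc, C4b and C3ar1 were called higher than in control. These were 5 of the 8 tested, against 0.627% of 14348 genes, and 6 passed the study's thresholds, against 2.22%. The control mice are the same as in the comparison of 5XFAD with control. The differences were 1.94 for C1qa, 1.63 for C1qb, 1.78 for C1qc, 1.55 for C4b and 1.63 for C3ar1, with adjusted p between 0.000224 and 0.0217 (limma). The median over the 8 members was 1.59.

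Single compound mice varied widely. C1qa was at 48.7, 63.8, 52.3, 91.8 and 54.7 FPKM. C1qb was at 210, 298, 201, 407 and 166 FPKM. C1qc was at 130, 162, 90.9, 238 and 115 FPKM. Compound mouse 4 was the highest of its group for 7 of the 9 members and among the highest 2 for all 9, and compound mouse 2 was among the highest 2 for 8. The mean log2(FPKM + 1) of the 12 microglial markers was 5.16 in compound mouse 4, 4.71 in mouse 2 and 4.51 to 4.63 in the other 3. Compound mouse 4 was also highest for the astrocyte list (5.95, against 5.57 to 5.72) and the list of 6 oligodendrocyte markers (7.46, against 6.69 to 6.94), and the part of cell content in these levels was not tested. All 5 mice were nevertheless above every control mouse for the 5 called members, as 2.75% of all genes tested were.

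C4b was at 7.81, 10.6, 10.6, 21.7 and 8.15 FPKM in the compound mice. C3ar1 was at 3.38, 7.46, 3.88, 6.69 and 4.05 FPKM. In both genes the lowest compound mouse lay above the highest control mouse. Serping1 was at 3.98, 6.97, 7.80, 11.6 and 4.20 FPKM, with 3 of 5 mice above all controls, and its difference of 0.62 did not pass the test (adjusted p = 0.448, limma). Itgam was at 2.30, 6.36, 2.45, 5.66 and 1.90 FPKM, with compound mice 2 and 4 apart from the other 3, and a difference of 0.47 (adjusted p = 0.609, limma). C3 was at 1.18, 1.38, 1.07, 1.95 and 0.766 FPKM, a difference of -0.02 from control (adjusted p = 0.991, limma).

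C5ar1 was detected in all 5 compound mice, at 0.282, 0.651, 0.357, 0.902 and 0.497 FPKM, all above the 0.135 FPKM of the highest control mouse. The difference in mean FPKM from control was 0.504 (exact permutation p = 0.0159, two-sided, the smallest that 5 against 4 mice allow). The call count for compound against control was sensitive to single mice: it fell to 2 without control mouse 4 or without compound mouse 2, and to 3 without control mouse 1 or control mouse 2. With 1 mouse omitted the differences stayed at 1.45 to 1.77 for C1qb, 1.58 to 1.93 for C1qc, 1.32 to 1.70 for C4b and 1.5 to 1.74 for C3ar1, with adjusted p of at most 0.0775 (limma). The count was 1, C1qa, with the choroid plexus score of each library as a covariate, an alternative chosen after seeing the data, while the differences of the other 4 were 1.57 for C1qb, 1.80 for C1qc, 1.51 for C4b and 1.51 for C3ar1.

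Set against Hdac1 cKO mice, which like the compound mice lack HDAC1 in neurons and astrocytes, 6 of 8 members were called higher in compound mice, against 1.42% of 14195 genes. The study's thresholds gave 7 members, against 2.94%. C4b differed by 2.14, C1qa by 1.88, C3ar1 by 1.72, C1qb by 1.72 and C1qc by 1.67, with adjusted p between 3.22e-05 and 0.00125 (limma). Serping1 was called here, at 1.27 ± 0.23 (SE, adjusted p = 0.0115, limma), and the 2 groups did not overlap. C3 also separated the groups, with 0.766 FPKM in the lowest compound mouse and 0.736 in the highest Hdac1 cKO mouse. Its difference was 0.78 (adjusted p = 0.0885, limma), and 1.89 with a pseudocount of 0.1. C3 passed the filter here only through the compound mice, so its place among the members counted in this comparison is a description. The ranges did not overlap for 7 of the 8 members and for 2.44% of all genes in this direction.

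**Figure D2:**
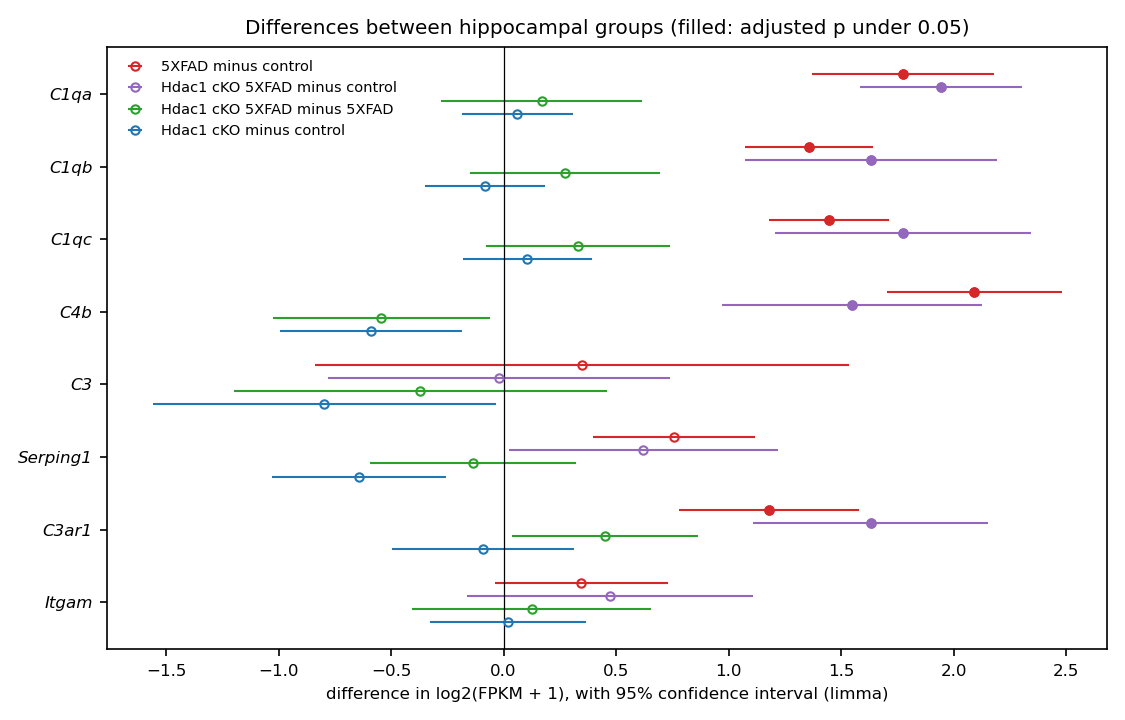
Difference in log2(FPKM + 1) between hippocampal groups (horizontal axis) with its 95% confidence interval from limma, for the 8 members that passed the filter, filled where the adjusted p was under 0.05. The 5XFAD and compound mice lie 1.18 to 2.09 above control for the C1q chains, C4b and C3ar1, and the intervals for C4b lie below 0 in both comparisons that change Hdac1 alone, without passing the adjusted threshold.

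With loss of HDAC1 alone, the C1q chains differed from control by less than the spread of the mice. C1qa was at 19.0, 13.9, 16.0, 14.2 and 15.9 FPKM in Hdac1 cKO mice. C1qb was at 75.6, 75.9, 82.0, 61.7 and 73.1 FPKM. C1qc was at 39.1, 40.6, 46.3, 49.6 and 40.8 FPKM. All 3 ranges overlapped those of control. Their differences from control were 0.06 (95% confidence interval -0.19 to 0.31), -0.08 (-0.35 to 0.18) and 0.11 (-0.18 to 0.39), in the order C1qa, C1qb and C1qc. C3ar1 (-0.09) and Itgam (0.02) were likewise within the spread, with 0.522 to 0.962 FPKM for C3ar1 and 1.88 to 2.64 FPKM for Itgam in the Hdac1 cKO mice.

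C4b, Serping1 and C3 lay lower in Hdac1 cKO mice. With limma, 0 of 8 members were called, where 0.154% of 14265 genes were. Of the 8, 3 had an unadjusted p under 0.05, as 1676 of all genes tested had. These 3, C4b, Serping1 and C3, also met the study's thresholds as lower, against 2.87% of all genes. C4b was at 1.26, 1.40, 2.34, 1.90 and 1.86 FPKM, every mouse below the lowest control mouse, a difference of -0.59 ± 0.19 (SE, adjusted p = 0.234, limma). Serping1 was at 2.14, 2.13, 1.59, 2.13 and 2.58 FPKM, also below every control mouse, a difference of -0.64 ± 0.18 (SE, adjusted p = 0.195, limma). Complete separation of this kind was seen in 2.15% of all genes tested, and the exact permutation test gave p = 0.0159 for each gene, the smallest that 5 against 4 mice allow. The margin was narrow, since the highest Hdac1 cKO mouse had 2.34 FPKM of C4b and the lowest control mouse 2.36, and 2.58 against 2.60 for Serping1.

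C3 was at 0.538, 0.736, 0.208, 0.0667 and 0.106 FPKM in Hdac1 cKO mice, with 4 of 5 below every control mouse. Its difference was -0.80 ± 0.35 (SE, adjusted p = 0.402, limma), and -1.78 with a pseudocount of 0.1. C3 passed the filter in this comparison only through control mouse 3 (4.65 FPKM), and without that mouse it was not tested, so its place among the 3 members at the study's thresholds rests on 1 library. Choroid plexus and fibroblast transcripts moved the same way as these 3 members. The mean log2(FPKM + 1) of 7 choroid plexus markers was 2.57 to 6.26 in control and 1.30 to 3.23 in Hdac1 cKO, and that of 6 fibroblast markers was 2.05 to 2.89 and 1.81 to 2.07, with none of either list called. With the choroid plexus score as a covariate, the differences were -0.23 for C4b, -0.41 for Serping1 and -0.29 for C3. The score itself largely followed the group, so this fit cannot separate its part from that of Hdac1 loss. In tissue of this kind fewer cells of a type and less RNA per cell cannot be told apart.

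C5ar1 went the other way, with 0.537, 0.335, 0, 0.288 and 0.286 FPKM in Hdac1 cKO mice and a difference in mean FPKM of 0.256 (exact permutation p = 0.0794, two-sided).

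Within mice that carry the 5XFAD transgenes, loss of HDAC1 changed no member past the threshold. Of 8 members 0 were called with limma, where 0.00698% of 14326 genes were, and 2 had an unadjusted p under 0.05, as 947 of all genes tested had. They were C4b, lower by 0.54 in compound mice (95% confidence interval -1.03 to -0.06, adjusted p = 0.734, limma), and C3ar1, higher by 0.45 (0.04 to 0.86, adjusted p = 0.734, limma). No member met the study's thresholds on the log2(FPKM + 1) scale, which 1.28% of all genes met in either direction. On other scales C3ar1 and C4b lay near 1.5-fold. For C3ar1 the ratio of mean FPKM was 1.52 (exact permutation p = 0.0693, two-sided), and the difference with a pseudocount of 0.1 was 0.54. For C4b the ratio was 0.70 (exact permutation p = 0.126, two-sided), and the difference with a pseudocount of 0.1 was -0.5855. For C4b, 4 of the 5 compound mice lay below all 6 5XFAD mice, and compound mouse 4, at 21.7 FPKM, lay among the highest. For C3ar1, compound mice 2 and 4 lay above all 5XFAD mice. No member separated the groups completely, while 0.391% of genes were higher and 0.216% lower in every compound mouse.

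The intervals of the other members leave room for differences in either direction between compound and 5XFAD mice. In limma C1qa differed by 0.17 (95% confidence interval -0.28 to 0.61), C1qb by 0.27 (-0.15 to 0.70), C1qc by 0.33 (-0.08 to 0.74), Itgam by 0.13 (-0.40 to 0.66), Serping1 by -0.13 (-0.59 to 0.32) and C3 by -0.37 (-1.20 to 0.46). With 1 mouse left out the C3 difference ranged from -0.55 to -0.006.

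The interaction asked whether loss of HDAC1 acted differently with and without the 5XFAD transgenes, in 1 fit of the 20 hippocampal libraries. With limma no member was called, as 0% of 14389 genes were. None had an unadjusted p under 0.05, where 1290 of all genes tested had. None met the study's thresholds, which 4.07% of all genes did. The estimate nearest to the threshold was that of C3ar1, 0.54 (95% confidence interval -0.02 to 1.10, adjusted p = 0.572, limma). For C4b it was 0.05 (-0.60 to 0.69). Averaged over both backgrounds, a contrast added after seeing the data, loss of HDAC1 gave -0.57 ± 0.15 (SE) for C4b (adjusted p = 0.218, limma) and -0.39 ± 0.15 for Serping1 (adjusted p = 0.375, limma). Of 8 members 0 were called, where 0.0278% of all genes were, and 2 had an unadjusted p under 0.05, as 1350 of 14389 genes had. No member met the study's thresholds on the log2(FPKM + 1) scale, against 1.33% of all genes. With a pseudocount of 0.1 the C4b difference was -0.70, beyond 1.5-fold.

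The order of the group means in FPKM was the same for C1qb, C4b, C3ar1 and Serping1 at the low end, with Hdac1 cKO below control and both transgenic groups above. For C1qb (-0.08) and C3ar1 (-0.09) the difference of Hdac1 cKO from control lay within the spread of the mice. For C1qa and C1qc the 2 lower groups stood the other way round, at 15.1 ± 1.4 (SD, n = 4) in control and 15.8 ± 2.0 (n = 5) in Hdac1 cKO for C1qa and 40.6 ± 7.8 and 43.3 ± 4.5 for C1qc, which did not differ beyond their spread. At the high end, compound exceeded 5XFAD for the C1q chains and the receptors C3ar1, C5ar1 and Itgam, and 5XFAD exceeded compound for C4b, Serping1 and C3. The 5XFAD mean of C3 includes mouse 1 at 9.21 FPKM, with the other 5XFAD mice at 0.562 to 1.92. C4b was at 16.8 ± 4.0 (n = 6) in 5XFAD and 11.8 ± 5.7 (n = 5) in compound mice, and C3ar1 at 3.35 ± 0.72 and 5.09 ± 1.85. None of these neighbouring means differed past the adjusted threshold in limma, which did not test C5ar1.

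Microglial markers were higher in the same mice. The mean log2(FPKM + 1) of 12 microglial genes was 3.62 ± 0.07 in control, 3.76 ± 0.05 in Hdac1 cKO, 4.45 ± 0.11 in 5XFAD and 4.72 ± 0.26 in compound mice. Of the 12, 6 were called higher in 5XFAD, against 0.667% of all genes, with a median difference of 0.87. The astrocyte list (8 genes) was at 5.22 ± 0.05, 5.24 ± 0.02, 5.49 ± 0.08 and 5.71 ± 0.14 in the same order. The list of 8 astrocyte markers had 1 member called in 5XFAD, and that of 6 hippocampal neuron markers had 0. In 5XFAD 102 of 14402 genes were called in either direction. In compound mice 0 of the 6 hippocampal neuron markers were called, where 95 of 14348 genes were. Markers of perivascular macrophages were at a mean of 1.23 in control and 1.11 in 5XFAD, and those of blood neutrophils and monocytes, of which 1 was listed at 0 in every library of either group, at 0.63 and 0.75. The part of microglial number in the members' levels was not tested.

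Relative to the microglial list in the same mouse, the members divided. C1qb stood 2.68 ± 0.25 log2 units above the list in control, 2.46 ± 0.19 in Hdac1 cKO, 3.20 ± 0.25 in 5XFAD and 3.21 ± 0.32 in compound mice. C1qa stood 0.38 ± 0.17, 0.31 ± 0.16, 1.32 ± 0.47 and 1.22 ± 0.11 units above it. C4b moved from -1.58 ± 0.30 in control to -0.33 ± 0.35 in 5XFAD and -1.14 ± 0.31 in compound mice, and was at -2.31 ± 0.24 in Hdac1 cKO. Itgam went down relative to the list, from -1.96 ± 0.29 in control and -2.08 ± 0.09 in Hdac1 cKO to -2.45 ± 0.32 in 5XFAD and -2.59 ± 0.49 in compound mice. Serping1 was at -1.34 ± 0.36 in control, -2.12 ± 0.15 in Hdac1 cKO, -1.42 ± 0.25 in 5XFAD and -1.82 ± 0.38 in compound mice. C3ar1 was at -2.69 ± 0.33, -2.92 ± 0.17, -2.35 ± 0.18 and -2.17 ± 0.30 in the same order. These are descriptions, since the list itself was higher in the transgenic mice. Its 12 genes did not rise alike. Their differences in 5XFAD against control ran from 0.09 to 1.94, and that of Itgam (0.35) lay within this range.

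**Figure D3:**
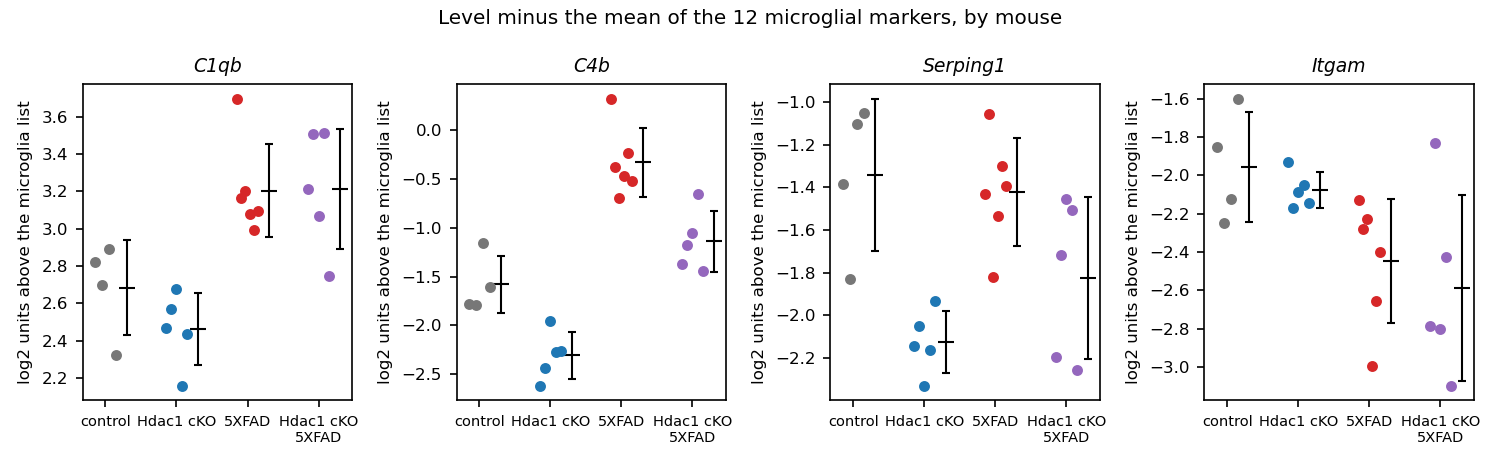
Level of 4 members as log2(FPKM + 1) minus the mean of the 12 microglial markers in the same mouse (vertical axis, log2 units), with the mean and SD beside the points. C1qb and C4b sit higher above or closer to the list in 5XFAD mice than in control (C4b -0.33 against -1.58), and Itgam sits lower (-2.45 against -1.96).

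The genes whose pattern over the 20 hippocampal mice was most like that of each member were found by the root mean square difference of log2(FPKM + 1), each gene taken relative to its control mean, among 14389 genes. For C1qb they were Ctss, which encodes the lysosomal protease cathepsin S (0.163), Ctsd, which encodes cathepsin D (0.178), and C1qc (0.216). For C1qc they were C1qb (0.216), Ctss (0.238) and Ctsd (0.270). For C1qa they were Mpeg1 (0.192), a macrophage gene, Gfap (0.237), the astrocyte filament gene, and Ly86 (0.320), and for C3ar1 the nearest were Ctss (0.207) and Ctsd (0.267).

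C4b had more distant neighbours, Psmb8 (0.398), a subunit of the immunoproteasome, Serpina3n (0.456) and Mpeg1 (0.485). For Serping1 they were Arpc1b (0.297), Tnfrsf1a (0.331) and Fxyd5 (0.336), and for Itgam they were Entpd1 (0.247), Fdps (0.274) and Itgav (0.279). C3 was nearest to Irf7 (0.510), Tec (0.520) and Samd9l (0.528). The median difference over all genes was 1.18 for C1qb, 1.48 for C4b, 0.74 for Serping1, 0.81 for C3 and 0.53 for Itgam, so the distances of C3 and Itgam are less far from those of other genes. The mice of a group share their condition, and these values carry no test.

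Of the rest of the pathway, 47 further complement genes were listed in the files and 22 of them passed the filter in 5XFAD against control. One was called, Itgax, the alpha chain of the other iC3b receptor CR4, against 0.667% of all genes higher. Itgax was at 0 in 3 control mice and 0.152 FPKM in the other one, and at 0.616 to 2.23 FPKM in the 6 5XFAD mice, a difference of 1.16 ± 0.21 (SE, adjusted p = 0.0188, limma). Itgax passed the filter only through the 5XFAD mice, so its call is given as a description and not as support for the pathway. By role, 0 of 3 classical and lectin genes, 0 of 2 alternative pathway genes, 0 of 1 terminal gene, 0 of 13 regulators and 1 of 3 receptors were called. In compound against control limma called 0 of 23, and 4 had an unadjusted p under 0.05, as 1505 of all 14348 genes had. In Hdac1 cKO against control it called 0 of 20, and 3, Cd59a and Cpn1 among them, had an unadjusted p under 0.05, as 1676 of 14265 genes had. In compound against 5XFAD it called 0 of 21, and 2, Vtn and Itgb2, had such a p, as 947 of 14326 genes had. In the nuclei it called 0 of 21, and 2, Masp1 and C8g, had such a p, as 709 of 15070 genes had. Genes named here for their unadjusted p were chosen after their values were seen. Cpn1, at a mean of 1.30 FPKM in control and 0.185 in Hdac1 cKO, passed the filter only through the control mice. Its p is therefore given as a description. Against Hdac1 cKO, 4 of 19 were called higher in compound mice, where 1.42% of 14195 genes were. Among them were Itgax (1.34), which passed the filter only through the compound mice, Itgb2 (1.31), the beta chain that CR3 and CR4 share, and Clu (0.51), which encodes clusterin.

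Itgb2 was at 1.09 to 2.65 FPKM in control, 0.431 to 1.42 in Hdac1 cKO, 0.642 to 2.93 in 5XFAD and 2.54 to 6.29 in compound mice. Its difference in 5XFAD against control was 0.21 (adjusted p = 0.808, limma). Leaving out the 9 members, the most abundant genes by role were Masp2, a lectin pathway protease (1.05 FPKM over the hippocampal libraries), Cfp, which encodes properdin (1.80), C8g of the terminal pathway (2.58), Clu (1093) and Itgb2 (2.11). Their differences in 5XFAD were 0.14 for Masp2, 0.21 for Cfp, -0.40 for C8g and 0.29 for Clu, none of them called. Of the terminal genes other than C8g, Hc, the gene of C5, was at 0.107 FPKM, the highest mean, and C9 was listed at 0 in all hippocampal libraries.

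**Figure D4:**
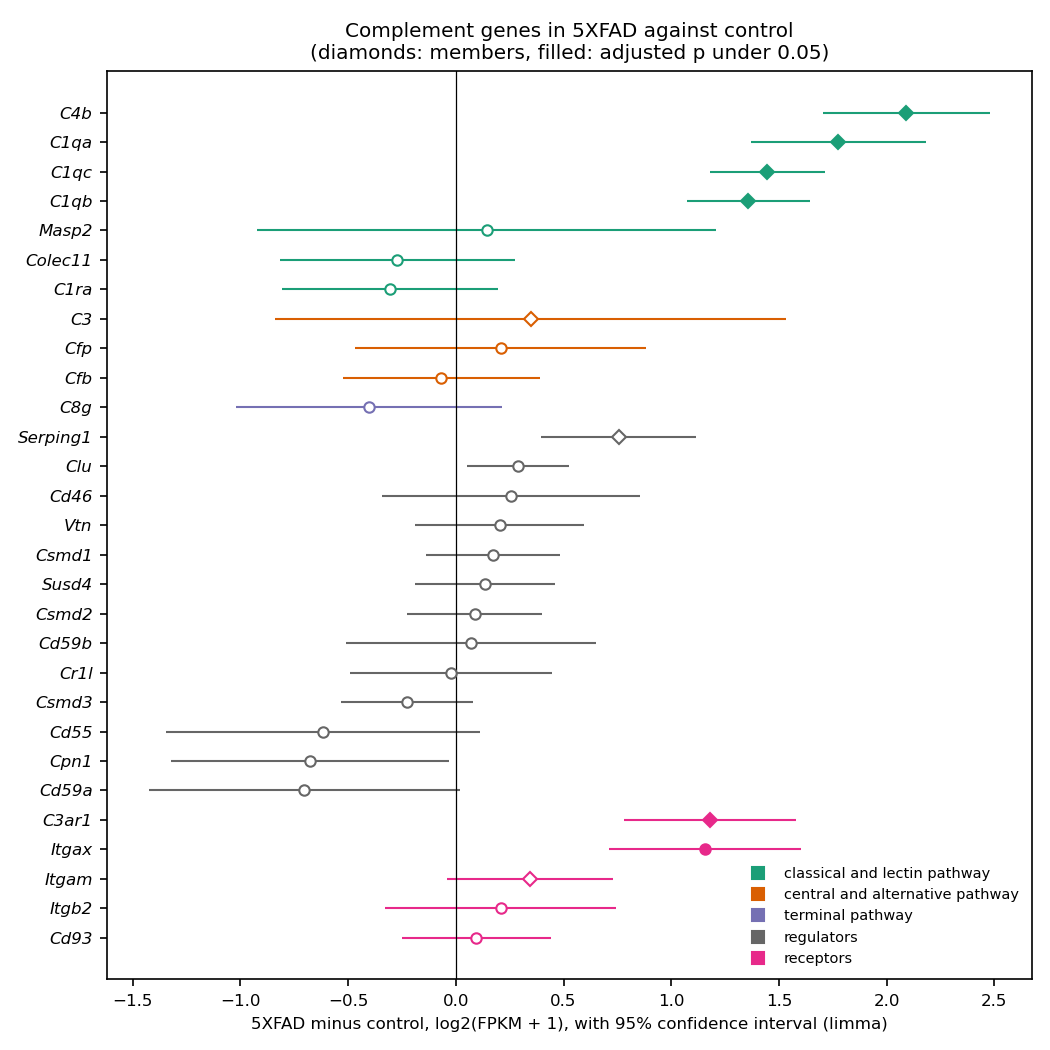
Difference between 5XFAD and control hippocampus in log2(FPKM + 1) with its 95% confidence interval (horizontal axis) for complement genes that passed the filter, ordered and coloured by role, with diamonds for the members and filled symbols at an adjusted p under 0.05. The called genes are C4b (2.09), the 3 C1q chains, C3ar1 (1.18) and Itgax (1.16), and no regulator is called, with Serping1 (0.76) the highest of them and Cd59a (-0.70) the lowest.

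GFAP+ nuclei of cortex were sorted on an astrocyte protein. The astrocyte list was at 7.69 ± 0.19 in these control nuclei and at 5.22 in control hippocampus, and the microglial list was at 2.83 ± 0.39 and 3.62. No microglial marker was at 0 in all control nuclei, and the list of 8 neuron markers was at 4.29 ± 0.18, against 6.81 ± 0.06 in hippocampus. C4b was at 26.9 ± 6.5 FPKM (SD, n = 3) in control nuclei and 3.18 ± 1.01 (n = 4) in control hippocampus. C1qb was at 36.3 ± 13.9 FPKM in control nuclei and 78.7 ± 13.4 in control hippocampus. The libraries differ in tissue, in nuclear against total RNA and in protocol, so these levels are set side by side with no test.

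C4b was lower in the Hdac1 cKO nuclei. It was at 34.4, 23.8 and 22.5 FPKM in control and at 17.6, 11.7, 14.0 and 14.1 FPKM in Hdac1 cKO, with no overlap, as 2.75% of all genes tested were lower without overlap. The difference was -0.85 ± 0.19 (SE), with an unadjusted p of 0.00130 and an adjusted p of 0.978 in limma. The exact permutation test over mice gave p = 0.0571, the smallest that 4 against 3 mice allow, so that it cannot reach 0.05. Of the 7 members tested 0 were called, against 0.0133% of 15070 genes, and 1 had an unadjusted p under 0.05, as 709 of all genes tested had. Also 1, C4b, met the study's thresholds as lower, against 1.34% of all genes. Hdac1 itself was at 14.5, 9.91 and 22.3 FPKM in control nuclei and at 9.71, 11.5, 5.80 and 8.73 FPKM in Hdac1 cKO nuclei, with overlap.

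The C1q chains varied more within the nuclei groups than between them. C1qb was at 21.4, 49.0 and 38.4 FPKM in control and at 9.37, 7.84, 49.99 and 34.6 FPKM in Hdac1 cKO. C1qc was at 14.7, 39.8 and 34.6 FPKM and at 10.7, 6.86, 24.8 and 29.1 FPKM, and C1qa at 4.85, 11.5 and 4.62 FPKM and at 5.01, 2.02, 18.1 and 15.8 FPKM. Hdac1 cKO mice 1 and 2 were the low ones for all 3 chains, and they also had the lowest microglial list of that group (2.20 and 2.45, against 2.95 and 3.29) and the lowest oligodendrocyte list (4.98 and 5.32, against 6.60 and 6.46). The part of other cell types in this was not tested. C4b did not follow that order, with its highest value in Hdac1 cKO mouse 1.

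Serping1 was at 2.49, 4.66 and 3.73 FPKM in control nuclei and at 1.36, 2.27, 1.32 and 3.72 FPKM in Hdac1 cKO nuclei, a difference of -0.58 (95% confidence interval -1.26 to 0.10, adjusted p = 0.984, limma). C3ar1 was at 0.416, 2.58 and 1.64 FPKM and at 0.0537, 0.309, 1.65 and 0.333 FPKM, a difference of -0.68 (adjusted p = 0.984, limma). Itgam was at 0.381, 1.43 and 0.0626 FPKM and at 0.221, 0.538, 1.77 and 0.608 FPKM. C3 and C5ar1 did not pass the filter in the nuclei: C3 was listed at 0 in 3 of the 7 libraries and reached 0.783 FPKM at most, and C5ar1 was listed at 0 in 6 of the 7.

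**Figure D5:**
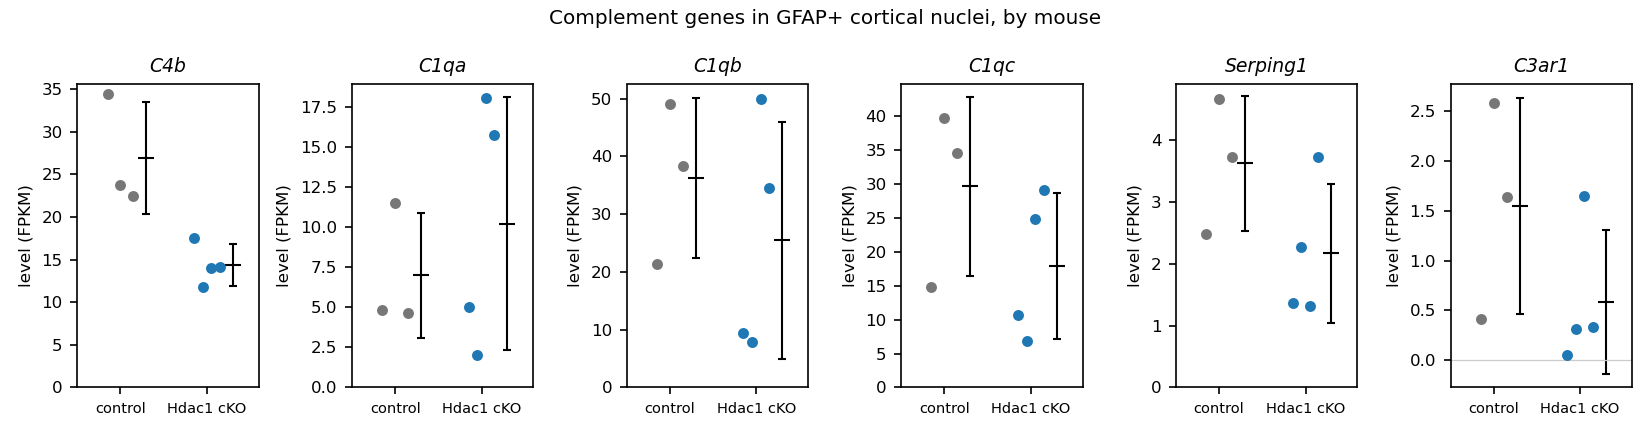
Level of 6 members in FPKM (vertical axis, 1 scale per panel) in GFAP+ cortical nuclei of single control and Hdac1 cKO mice, with the mean and SD beside the points. C4b lies lower in every Hdac1 cKO mouse (11.7 to 17.6) than in any control mouse (22.5 to 34.4), and the C1q chains overlap widely.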

How the data were processed

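RNA-seq of 20 hippocampal and 7 GFAP+ nuclei libraries was used. The other 7 samples, 6 of ChIP-seq and control sample 2 of the nuclei, were not analysed here. The authors deposited FPKM values, made with Tophat2 and Cufflinks 2.0.0 (submitters' processing notes) on the UCSC mm9 annotation, from 3′ Digital Gene Expression libraries of hippocampus and SMART-Seq libraries of nuclei. FPKM divides by transcript length although 3′ libraries read one end, so levels compared between genes are uncertain, while the length cancels in fold changes within a gene. Groups came from the labels. No library batch is given. Hippocampal samples of mice without the transgenes are numbered in a different block from those of mice with them. Whether the blocks were prepared or sequenced together is not stated. Every comparison of mice with and without the transgenes therefore also compares the blocks, and these fits cannot separate the parts. The part of the block was not tested. Comparisons of Hdac1 loss within a background stay inside a block.

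Tests used limma 3.58.1 (trend, robust, R 4.3.3) on log2(FPKM + 1), with a filter at a mean of 0.5 FPKM and Benjamini-Hochberg adjustment over all genes, fitted on the groups compared, and exact permutation tests of FPKM over mice (scipy). No normalization was added. On simulated data the fit recovered 77.5% (GFAP+ nuclei, 15070 genes) to 96% (compound against Hdac1 cKO, 14195 genes) of genes changed by 1.5 log2 units in the comparisons of the design. The changed genes were all drawn from those with a mean log2(FPKM + 1) above 2. Recovery of genes at lower levels, or of smaller changes, was not simulated. Promoters came from RefSeq and positions from GENCODE M1 on NCBIM37 (mm9). The members and lists were chosen with earlier results of these data known. Named genes were every member, the called and the most abundant complement genes, Hdac1, Thy1 and the 3 nearest patterns, and markers served as measured context. Some genes that this rule names are not reported here. Alternatives were another pseudocount and filter, 2 scalings, a plain fit, a joint fit, a replicate block, each mouse left out and, added later, a choroid plexus covariate.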

Additional observations from a re-analysis of the deposited data

Results flagged for a closer look

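Among 45 sets of 4 to 6 mice, each 1 member in 1 group, 6 held a mouse whose gap to its nearest neighbour exceeded Dixon's 95% critical value for that group size, and chance gives about 1 set in 20. For C3, control mouse 3 was at 4.65 FPKM with the others at 0.622 to 0.721, and 5XFAD mouse 1 was at 9.21 FPKM with the others at 0.562 to 1.92. For C4b, compound mouse 4 was at 21.7 FPKM with the others at 7.81 to 10.6. For C5ar1, control mouse 1 was at 0.135 FPKM with the others listed at 0, 5XFAD mouse 1 was at 0.896 FPKM with the others at 0.0726 to 0.361, and GFAP+ Hdac1 cKO mouse 3 was at 0.467 FPKM with the others listed at 0. Where all others are listed at 0, as in these C5ar1 sets of control and GFAP+ Hdac1 cKO mice, any value above 0 exceeds the critical value, so the chance rate does not apply to them. No member differed between the backgrounds by the interaction at an adjusted p under 0.05 (limma).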

How the results depend on the processing

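Of 1299 values of single members under the alternatives, 1237 kept their direction and their side of the threshold, 21 no longer passed it, 1 newly passed it and 40 changed sign. The count of members called in 5XFAD against control was 5 to 6 and in compound against Hdac1 cKO 6 with any mouse left out. In compound against control it was 2 to 5 with a mouse left out, 1 with the choroid plexus covariate and 1 with the replicate block, which the labels do not support as a pairing: same-numbered hippocampal mice correlated at -0.117 to 0.0982 over 27 pairs, and 8 matched best with their own number. The differences of C1qb, C1qc, C4b and C3ar1 in compound against control stayed between 1.51 and 2.36 under every setting that kept all mice. The replicate block also took C3ar1 in 5XFAD against control to an adjusted p of 0.0566 (limma), against 0.00144 to 0.023 under the other settings that kept all mice. At the study's thresholds 3 members passed in Hdac1 cKO against control and 1 in the nuclei.

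C3 in compound against control became 0.11 with a pseudocount of 0.1, 0.01825 with quantile normalization, 0.0638 with the replicate block and 0.27 with the covariate. The interaction became -0.01432 for C4b with quantile normalization, and -0.004317 for C4b and -0.0003394 for C1qa with the replicate block. The covariate gave -0.05432 for C1qa, 0.12 for C3ar1 and -0.06883 for Itgam in Hdac1 cKO against control.

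With each mouse left out in turn, signs changed for the following. In Hdac1 cKO against control, C1qa ranged from -0.004263 to 0.11, C1qc from -0.02852 to 0.18, C3ar1 from -0.21 to 0.0162 and Itgam from -0.05866 to 0.14. C3 ranged from -0.01565 to 0.79 in 5XFAD and from -0.18 to 0.42 in compound mice against control. Against 5XFAD, Itgam ranged from -0.06079 to 0.28 and Serping1 from -0.32 to 0.01059 in compound mice. In the interaction, C1qa ranged from -0.0403 to 0.26, C3 from -0.01192 to 0.79, C4b from -0.19 to 0.16 and Itgam from -0.0799 to 0.26. In the nuclei, C1qa ranged from -0.15 to 0.74 and Itgam from -0.11 to 0.49, and in the averaged contrast Itgam ranged from -0.02084 to 0.15. The causes were not tested. Levels below 1 FPKM (C3, C5ar1) are limited by depth, which is unknown.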
